A study of Mus musculus with 30 samples.

Results

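Ion transporters and channels were the 176 genes of 21689 on the array whose symbol marks them as a sodium, potassium, calcium or proton pump or exchanger, a cation-chloride, bicarbonate, phosphate or Slc26 anion transporter, a potassium or chloride channel, a transient receptor potential (TRP) channel or an acid-sensing channel. They were chosen by symbol alone, with no measured value in the rule, although earlier results of these data were known. They were read by 261 probes. By family they comprised 35 voltage-gated, 14 inward rectifier and 11 tandem-pore potassium channels and 9 members of the calcium-activated potassium channel family. That family includes the auxiliary subunits Kcnmb1, Kcnmb2 and Kcnmb4, and 11 further auxiliary proteins of potassium channels were counted apart. There were also 7 TRPC, 8 TRPM and 5 TRPV channels, 5 acid-sensing channels and 9 chloride channels or antiporters. The transporters were 8 subunits of the sodium-potassium pump, 3 calcium pumps of the endoplasmic reticulum and 2 of the plasma membrane, 9 sodium-proton exchangers with 2 adaptor proteins, 9 cation-chloride cotransporters, 9 bicarbonate transporters, 3 sodium-calcium exchangers, 5 phosphate transporters and 9 Slc26 anion transporters, and 3 further symbols matched without belonging to a family.

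Immortalised mouse embryonic fibroblasts (MEFs), wild type or lacking the stress-activated kinase p38α (p38α-/-, below KO), were hybridised on 30 Agilent arrays of 2 colours, 2 per group in 15 groups. Wild type (WT) cells received 25 ng/ml anisomycin, a translation inhibitor, or 100 ng/ml of the cytokine TNFα, each for 45 min, or 100 mM NaCl for 45 min, 2 h or 8 h. Each of these 5 treatments was also given after SB203580, an inhibitor of p38 kinases (10 µM, 30 min by the protocol, whereas the sample titles give another dose unit and time), which was also given alone. The KO groups were untreated cells and cells under each of the 3 stresses, NaCl being given for 2 h, and every sample (Cy5) was set against the same pool of untreated WT cultures (Cy3) without a dye swap. The pool was the only untreated WT material, each genotype was represented by an immortalised line, and the 2 arrays of a group were independent experiments. The p-values rest on the spread between such experiments, shared over all 15 groups, and measure no spread between lines. Same-numbered arrays of different groups deviated together, as described with the processing. In cultures measured in bulk, fewer expressing cells and less RNA per cell cannot be told apart.

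Sodium-potassium pumps export sodium and import potassium, and the gradients they build drive sodium-coupled cotransport, sodium-proton exchange and sodium-calcium exchange. A cell in hypertonic medium loses water and then takes up ions through sodium-proton exchangers and sodium-potassium-chloride cotransporters, and later replaces part of them by organic osmolytes such as sorbitol and taurine. The transcription factor NFAT5 drives osmolyte genes from promoter or enhancer elements whose core is TGGAAA.

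Promoter windows of RefSeq genes (GRCm38.p6), which span each gene start and lie mostly upstream of it, were matched to 130 of the 176 members. TGGAAA was present, on either strand, in 19% of 174 member windows and in 21.4% of all 32851 windows, TGACGTCA (the cAMP response element) in 1.15% and 1.79%, and TGANTCA (the AP-1 site) in 5.17% and 7.81%. The stretches below are shown because they belong to members called higher after 8 h of NaCl, the stress with the most calls against the other WT groups. Trpc4ap, a TRP channel partner that was called higher as well, held TGGAAA at 2 places and is not shown. Capitals mark the motif, read on the strand given, and a match describes letters in the window and no bound factor.
Atp1b3, chr9:96363771-96363798 (+): atagcgggcagTGGAAAtttcctctccc
Clcn2, chr16:20716648-20716675 (+): atggctaggccTGGAAAgaggggcggag
Slc9a3r2, chr17:24645013-24645041 (-): gctacccaaaaTGAGTCAgtccctatgtc
Accn3 and Atp1b1, the members with the largest increases after 8 h of NaCl, held none of the 3 motifs in their windows.

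Values are log2 ratios of sample to pool, read from the probe of each gene that was brightest in the pool, and a gene was called where its Benjamini-Hochberg adjusted p (limma, over all genes measured) was under 0.05. Spots that the scanner software marked as outliers made up 6.78 to 44.8% of an array's spots (median 16%), and these were left out, so that 86 to 160 of the 176 members were measured on an array and 57 on all 30. The well-above-background flag was met in both colours on all 30 arrays by 149 members. That flag did not separate expressed from silent genes, since markers of T cells and epithelium met it as the fibroblast markers did. Mapk14, which encodes p38α, lay between -2.24 and -0.94 on the 8 KO arrays and above 0 on all 22 WT arrays. All first WT arrays were scanned together, all second WT arrays were scanned with the first KO arrays, and the second KO arrays were scanned in 2 further batches.

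Some members lay on the same side of the pool whatever the treatment or genotype. Slc8a1, a sodium-calcium exchanger of the plasma membrane, lay between -1.55 and -0.31 on the 30 arrays with its brightest probe, between -0.29 and 0.24 with the second, and between -1.43 and 0.39 with the third and dimmest. Its offset was therefore seen with the brightest probe and not with the second. Atp2a3, a calcium pump of the endoplasmic reticulum read by 1 probe, lay between -2.33 and -0.30, and Slc12a3, the thiazide-sensitive sodium-chloride cotransporter, between -1.78 and -0.54. Of 118 members measured on at least 20 arrays, 7 lay below the pool on every array measured (among them Atp2a3, Kcna7, Slc12a3, Slc26a8, Slc34a3 and Slc8a1) and 1, Accn3, lay above it. With no dye swap and no untreated WT sample in Cy5, an offset of the dye and a difference of the pool cannot be told apart.

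**Figure D1:**
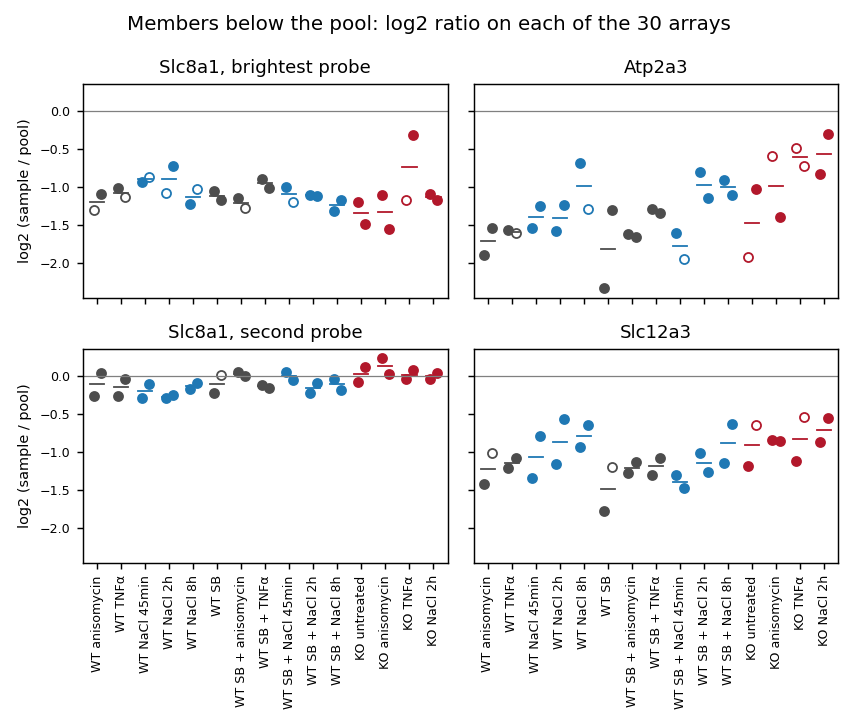
Log2 ratio of sample to pool on each of the 30 arrays for Slc8a1 by probe and for Atp2a3 and Slc12a3, in 15 groups (2 points and a line at their mean, open points for spots marked as outliers, grey for WT without NaCl, blue for WT with NaCl, red for KO). The brightest probes lie below 0 on all arrays while the second probe of Slc8a1 lies near 0.

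Each treatment was also compared with the mean of the WT groups that had not received the same agent, which carries any offset shared by the groups but received other agents. This reference was chosen after seeing the data. Of 29 members called after SB203580 against the pool, 1 was also called against the other WT groups, and the corresponding counts were 0 of 10 after anisomycin, 0 of 12 after TNFα, 0 of 9, 2 of 21 and 5 of 15 after NaCl for 45 min, 2 h and 8 h, and 3 of 19 in untreated KO cells. Whether or not the pool called them, that reference called 1 of 101, 0 of 103, 0 of 98, 1 of 80, 3 of 128, 7 of 103 and 4 of 111 members in the same order. It called 2.7%, 0.474%, 0.514%, 0.279%, 2.01%, 16.4% and 3.68% of all genes. These shares compare with the counts out of all members tested, and not with the counts out of the pool calls. A call lost by that reference did not always come with a smaller difference. Accn5, an acid-sensing channel, differed after anisomycin by -0.84 from the pool and by -0.91 from the other WT groups (adjusted p = 0.27), and Kcnj15, an inward rectifier, after 45 min of NaCl by 0.48 and 0.42 (adjusted p = 0.48). Keeping the outlier spots tested all 176 members and gave 0, 0, 0, 3, 17, 2 and 6 calls against the other WT groups, in the order anisomycin, TNFα, NaCl 45 min, NaCl 2 h, NaCl 8 h, SB203580 and KO, beside 0.429%, 0.489%, 0.175%, 2.44%, 16.4%, 2.14% and 3.35% of all genes. Against the pool, keeping them gave 49, 51, 37, 42, 38, 90 and 49 calls in that order, most of them lower, beside 28.9%, 27%, 22.3%, 24%, 26%, 48.6% and 29.4% of all genes.

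**Figure D2:**
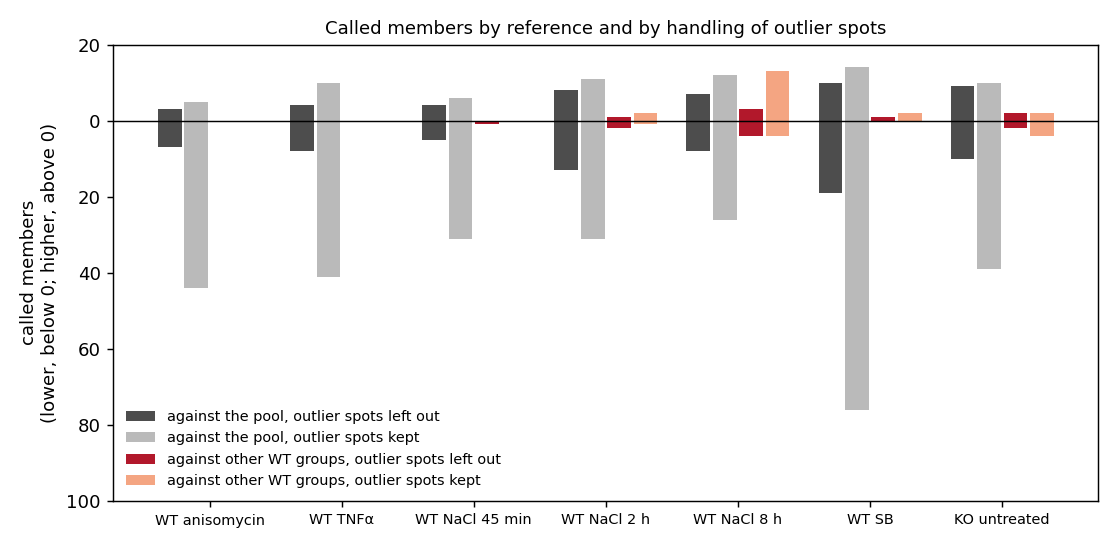
Number of members called higher (above 0) and lower (below 0) in the 7 comparisons with the pool, with outlier spots left out or kept, and against the pool or the other WT groups. The grey bars reach 90 members for SB203580, whereas against the other WT groups the longest bar is NaCl 8 h with 17.

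NaCl for 8 h gave the most calls by that reference, and they fell in several families of transporters and channels. Against the pool 15 of 104 members measured were called, 7 higher (Accn3, Trpm7, Kcnh7, Kcnab1, Slc12a2, Kcna1 and Slc9a4) and 8 lower (among them Slc26a11, Kcnv1, Slc12a3, Slc20a1, Kcnj3, Slc26a6 and Kcnab2), beside 24.7% of all genes, 12.8% higher and 11.9% lower. Kcnh7 differed from the pool by 0.56 with its brightest probe and by -0.08 and 0.02 with its dimmer probes. Against the other WT groups with all spots kept, 13 of 176 were higher and 4 lower, which is 9.66% of members beside 16.4% of all genes. The median member differed by 0.10 and the median gene by 0.08. Subunits of the sodium-potassium pump, a sodium-proton exchanger adaptor, bicarbonate transporters, chloride channels and an acid-sensing channel were among the higher, and 2 of the 4 lower were Slc26 anion transporters.

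Accn3 (now Asic3; chromosome 5, 24413451-24417840), a proton-gated sodium channel best known from sensory neurons, showed the largest increase. It measured 1.95 and 2.23 after 8 h of NaCl, 0.40 and 0.39 after 45 min, and 1.25 and 0.06 after 2 h. The 10 WT arrays without NaCl lay between 0.09 and 0.61, so both 8 h arrays lay above all of them and the 2 h arrays disagreed. The first 8 h array exceeded the highest array of its scan batch without NaCl (0.61), and the second that of its own batch (0.29). The 8 h mean was 2.09 ± 0.20 (SE), a 4.26-fold ratio (adjusted p = 9.7e-07), and 1.85 ± 0.22 against the other WT groups (adjusted p = 1.1e-05). It was higher after 8 h than after 45 min by 1.70 ± 0.29 (adjusted p = 0.00078), the 1 member called in that comparison of 74, beside 8.28% of all genes. With replicate number as a block 4 were called (Accn3 and Kcnh7 higher, Kcnab3 and Slc26a11 lower), beside 11.5%. Kcnh7 differed there by 0.68 with its brightest probe and by 0.002 and -0.001 with its dimmer probes. The probe of Accn3 met the well-above-background flag in both colours on all 30 arrays, a flag that does not show expression. Its median pool signal of 182 intensity units was dim, below that of the endothelial marker Cdh5 (331, percentile 22.6 among probes).

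The β subunits Atp1b1 and Atp1b3 of the sodium-potassium pump were called higher at 8 h. Of the 8 genes of the pump 3 were called, and all 8 measured above the other WT groups, with a median of 0.34. At 2 h 5 of the 8 lay above 0, none called, with a median of 0.14. No share of all genes is given beside these counts of direction, and at 8 h the median of all genes lay above those groups too. Atp1b1 (chromosome 1, 164437099-164458355), a β subunit that carries the pump to the membrane, measured 0.93 and 1.5 at 8 h, 0.64 and 0.44 at 2 h, and -0.33 and -0.04 at 45 min. The WT arrays without NaCl lay between -0.36 and 0.27, below both the 2 h and the 8 h values. The 8 h difference was 1.29 ± 0.19 (2.45-fold, adjusted p = 8.2e-05) and the 2 h difference 0.62 ± 0.19 (adjusted p = 0.090).

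Atp1b3 (chromosome 9, 96332655-96364431), another β subunit, measured 1.25 and 1.72 at 8 h, and 0.08 to 0.42 at the earlier times. The WT arrays without NaCl lay between 0.21 and 0.91, the highest of them with SB203580 alone. The difference was 1.1 ± 0.14 (2.14-fold, adjusted p = 2.4e-05). The second probe measured 0.91 and 1.52 at 8 h, the third 0.85 and 1.26, and the fourth and dimmest 0.27 and 0.04, so 3 of its 4 probes were high on both arrays.

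The Atp1b1 and Atp1b3 results rest on spots marked as outliers: Atp1b1 was unmarked on 6 of 30 arrays and Atp1b3 on 24, and neither could be tested at 8 h with marked spots left out. Atp1a4, Atp1b2 and Atp1b4 differed by 0.20, 0.22 and 0.19, with adjusted p of 0.42, 0.44 and 0.27. Among calcium pumps, Atp2a2, the widespread pump of the endoplasmic reticulum, measured 0.87 and 1.12 at 8 h and differed by 0.59 ± 0.22 (adjusted p = 0.087).

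**Figure D3:**
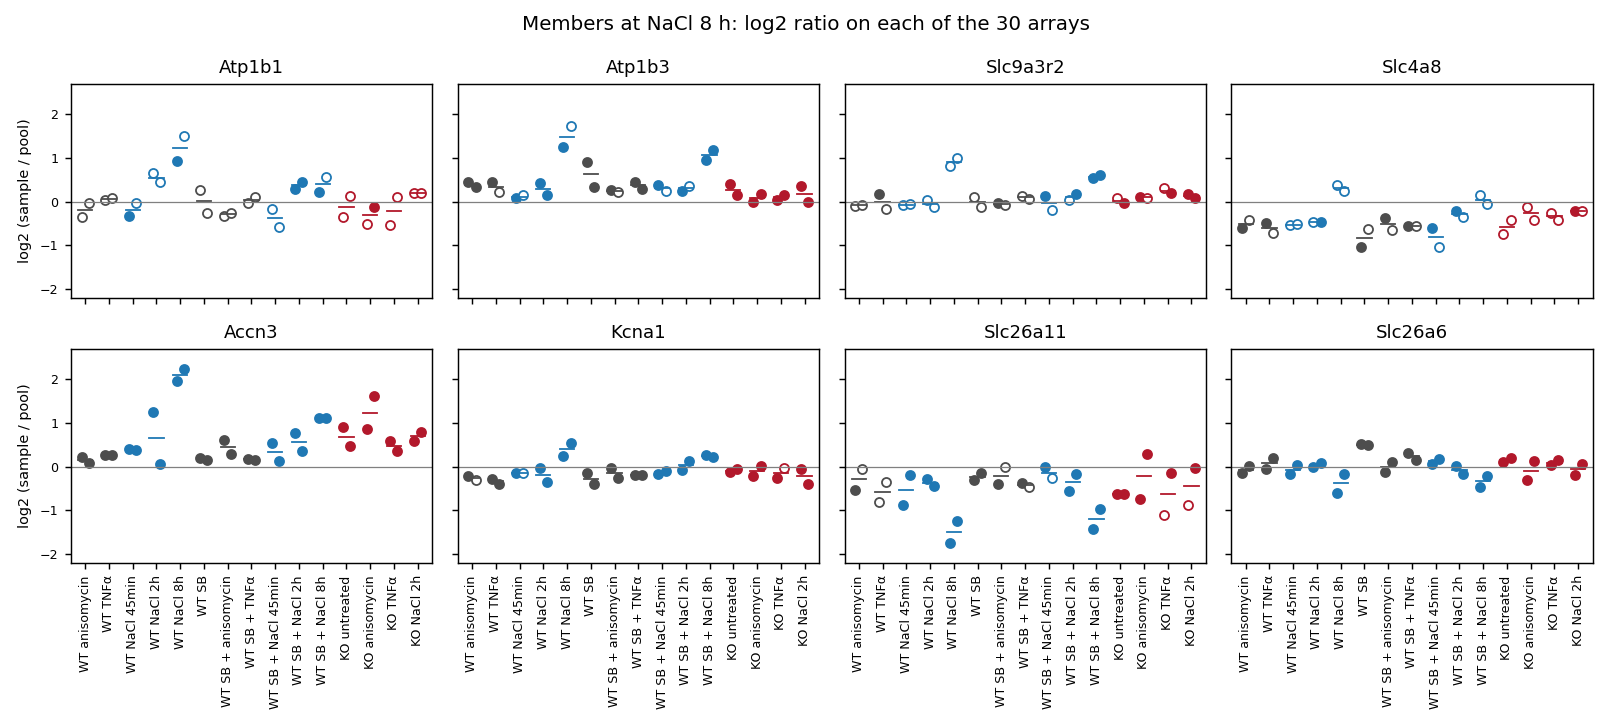
Log2 ratio of sample to pool on each of the 30 arrays for 8 members called after NaCl for 8 h, in 15 groups (2 points and a line at their mean, open points for spots marked as outliers, grey for WT without NaCl, blue for WT with NaCl, red for KO). Accn3, Atp1b1, Atp1b3 and Slc9a3r2 stand highest and Slc26a11 lowest in the NaCl 8 h group, with the SB203580 plus NaCl 8 h group next to it.

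Among proton, bicarbonate and chloride transporters and their adaptors, 5 members were called higher at 8 h against the other WT groups with outlier spots kept. Slc9a3r2 (chromosome 17, 24639281-24650305), the NHERF2 adaptor that tethers sodium-proton exchanger 3, measured 0.81 and 1.00 at 8 h, and -0.17 to 0.18 on the WT arrays without NaCl. It differed by 0.92 ± 0.10 (1.89-fold, adjusted p = 3.3e-06), with both 8 h spots marked as outliers. None of the 9 sodium-proton exchangers themselves was called at 8 h by that reference, and their differences lay between -0.21 and 0.19. Against the pool Slc9a4 was called higher (0.31, limma adjusted p = 0.036).

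Of 9 bicarbonate transporters 2 were called higher. Slc4a8, a sodium-driven chloride-bicarbonate exchanger, measured 0.38 and 0.25 against -1.05 to -0.39 on the WT arrays without NaCl (difference 0.92 ± 0.13, adjusted p = 5.4e-05). Slc4a2, an anion exchanger, measured -0.26 and -0.32 against -0.85 to -0.37 (difference 0.36 ± 0.12, adjusted p = 0.045). Both genes stood below the pool in those groups, and Slc4a2 stayed below it, so Slc4a2 was higher than the WT groups and not than the pool. The spots of Slc4a8 were marked as outliers on 21 of 30 arrays and those of Slc4a2 on 24, and neither could be tested at 8 h with marked spots left out. The second, dimmer probe of Slc4a8 measured 0.17 and 0.13, within the range without NaCl (-0.27 to 0.39).

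All 9 chloride channels and antiporters lay above the other WT groups, 2 of them called. The median of all genes lay above those groups too. Clcn2, a chloride channel opened by hyperpolarisation and cell swelling, measured 0.38 and 0.18 against -0.77 to -0.31 (difference 0.73 ± 0.10, 1.66-fold, adjusted p = 6.3e-05). The second, dimmer probe went the other way, with -0.66 and -0.26 at 8 h, below all WT arrays without NaCl (-0.23 to 0.98). The brightest was marked as an outlier on 12 of 30 arrays, and could not be tested with marked spots left out. Clcn5, an endosomal chloride-proton antiporter, measured 0.47 and 0.02 against -0.59 to 0.04 (difference 0.60 ± 0.19, adjusted p = 0.035), and its second array overlapped the others. None of the 9 cation-chloride cotransporters was called by this reference. Slc12a2, the sodium-potassium-chloride cotransporter of most cells, measured 0.31 and 0.49, a call against the pool (0.40 ± 0.12, adjusted p = 0.024) and not against the other WT groups (0.34 ± 0.13, adjusted p = 0.10).

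The lower members at 8 h against the other WT groups were Slc26a11, Slc26a6, Kcnv1 and Kcnab3. Slc26a11, a sulfate and anion transporter, measured -1.76 and -1.25 at 8 h and -1.42 and -0.98 with SB203580, against -0.81 to -0.02 on the WT arrays without NaCl, with no overlap. It fell by 1.5 ± 0.23 against the pool (2.83-fold, adjusted p = 0.00062) and by 1.16 ± 0.28 against the other WT groups (adjusted p = 0.0062). Slc26a6, a chloride-oxalate-bicarbonate exchanger, measured -0.60 and -0.17, against -0.16 to 0.51, and its second array only just passed the lowest of these (difference -0.53 ± 0.13, adjusted p = 0.0063). Its second probe measured -0.99 and -0.47.

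Among potassium channels, Kcna1, a voltage-gated delayed rectifier, rose, with 0.24 and 0.54 against -0.40 to -0.04 (difference 0.64 ± 0.11, adjusted p = 0.00059). Kcnv1, a silent subunit that modifies other voltage-gated channels, measured -1.23 and -0.35 against -0.21 to 0.91 (difference -0.85 ± 0.27, adjusted p = 0.038). Its second probe was well above background on 0 of 30 arrays in Cy5 and gives no level. Kcnab3, an auxiliary β subunit, measured -0.02 and -1.0 against -0.27 to 1.27 (difference -1.08 ± 0.30, adjusted p = 0.017), so its first array overlapped the others. Kcnj4, an inward rectifier, measured 0.34 and 0.04 (difference 0.42), and 0.00 and -0.29 with its second probe. Against the other WT groups with outlier spots kept, 2 of the 35 voltage-gated channels were called, 1 of 14 inward rectifiers and 1 of 11 auxiliary proteins. Of 11 tandem-pore channels and the 9 members of the calcium-activated family 0 were called. No TRP channel was called at 8 h by that reference, whereas Trpm7 was called against the pool. Trpv4, a channel opened by osmotic swelling, measured -0.30 and -0.33 (difference 0.06, adjusted p = 0.73). The remaining calls, Slc4a1ap (0.61) and Trpc4ap (0.43), are proteins named after a transporter or channel partner. With marked spots left out, Trpc4ap missed the threshold (0.37, adjusted p = 0.10). The second probes of both lay within the range of the WT arrays without NaCl.

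At 2 h fewer members were called against the other WT groups. Against the pool 21 of 131 were called, 8 higher and 13 lower, beside 15.4% of all genes, 8.28% higher and 7.17% lower. Without the first array 4 were called. Among the 12 largest were Kcnab1, Trpm7, Accn3 and Kcnk5 above the pool and Atp2a3, Slc12a3, Slc34a1, Slc4a7 and Kcnk9 below. Kcnk5, Slc4a7 and Slc9a4 were called against the other WT groups, and with outlier spots kept Kcnk5 and Slc4a7 were again among the calls.

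Kcnk5 (TASK2), a tandem-pore potassium channel that takes part in volume regulation, measured 0.68 and 0.52 at 2 h, and -0.54 to 0.13 on the WT arrays without NaCl. The groups did not overlap, in either scan batch. It stood 0.93 ± 0.17 above the other WT groups (1.91-fold, adjusted p = 0.0039). At 45 min it measured -0.10 and -0.24 and at 8 h -0.13 and -0.03, so with this probe the difference was seen at 2 h alone among the WT times. With SB203580 and NaCl for 2 h it measured 0.09 and 0.30, and with SB203580 and NaCl for 8 h -0.56 and 0.42, arrays that lay far apart. In KO cells it measured -0.63 and -0.69 untreated and 0.04 and 0.29 after NaCl, a difference of 0.83 ± 0.22 that missed the threshold (adjusted p = 0.075). The second, dimmer probe measured -0.16 and -0.02 at 2 h in WT cells, and -0.06, -0.17, 0.01 and -0.01 on the same KO arrays. Its WT mean was -0.39 at 45 min and 0.18 at 8 h, so this probe was not highest at 2 h.

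Slc4a7, an electroneutral sodium-bicarbonate cotransporter, measured -0.61 and -0.70 at 2 h, -0.74 and -0.74 with SB203580, and -0.58 and -0.92 in KO cells, which measured -0.23 and -0.47 untreated. The WT arrays without NaCl lay between -0.31 and 0.09, above all 6 of these values. The WT difference was -0.54 ± 0.12 (adjusted p = 0.027). At 8 h it measured -0.09 and -0.06. Its second probe measured 0.18 and 0.16 at 2 h with a median of 0.20 over the 30 arrays, so the decrease was seen with 1 probe.

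**Figure D4:**
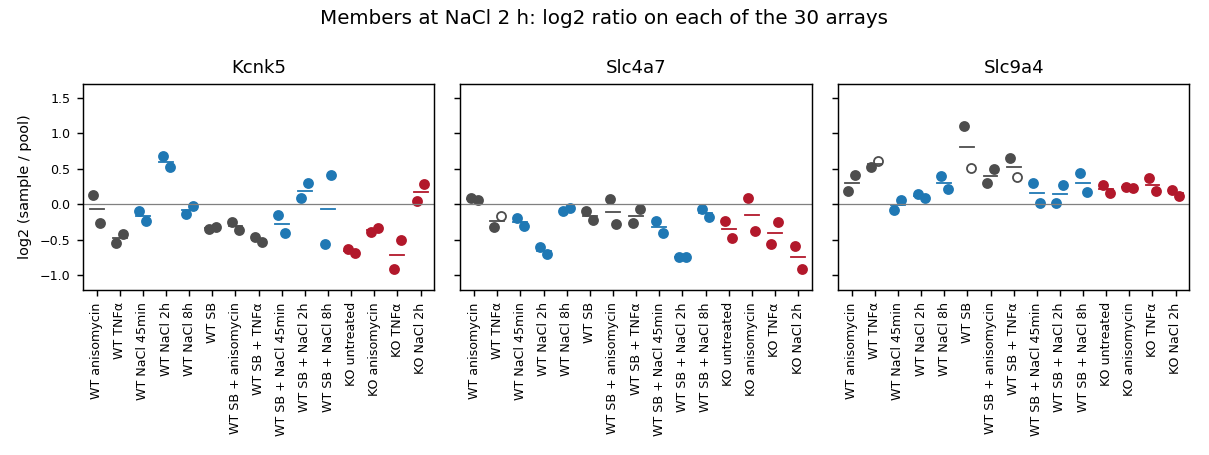
Log2 ratio of sample to pool on each of the 30 arrays for Kcnk5, Slc4a7 and Slc9a4, in 15 groups (2 points and a line at their mean, open points for spots marked as outliers, grey for WT without NaCl, blue for WT with NaCl, red for KO). Kcnk5 is highest and Slc4a7 low in the 2 h groups with NaCl, and Slc9a4 is highest with SB203580 alone.

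At 45 min 9 of 81 members were called against the pool, 4 higher (among them Slc4a11, Kcnab1 and Kcnj15) and 5 lower (among them Atp2a3, Slc12a3, Kcnk9 and Kcnj3), beside 13.3% of all genes, 7.48% higher and 5.81% lower. Without the first array 2 were called, and with replicate number as a block 16, beside 23.4% of all genes. Slc4a11 measured 0.00 and 2.09 there and was well above background on 1 of 30 arrays, so no level can be given. Against the other WT groups Slc9a4, a sodium-proton exchanger, was called lower (-0.61, adjusted p = 0.043), and with outlier spots kept it was not (-0.53, adjusted p = 0.19). Its values were -0.08 and 0.06 at 45 min, 0.14 and 0.08 at 2 h, and 0.18 to 1.11 on the WT arrays without NaCl.

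SB203580 changed no member beyond the threshold when added to a stress. Members called by limma were 0 of 93 when anisomycin was the stress, 0 of 86 for TNFα, and for NaCl 0 of 70 at 45 min, 0 of 113 at 2 h and 0 of 90 at 8 h, beside 0.0093%, 0%, 0%, 0% and 0.363% of all genes. At an unadjusted p under 0.05 there were 1, 3, 4, 4 and 3 members in the same order. The share of all genes at that threshold is not given, so these counts cannot be read as a response of the members. The 8 h values of several members that NaCl raised were nearer to the pool with the inhibitor. Accn3 measured 1.12 and 1.11 with SB203580 and 1.95 and 2.23 without, a difference of -0.98 ± 0.29 (adjusted p = 0.29). Atp1b1 measured 0.22 and 0.57 against 0.93 and 1.5 (difference -0.82, adjusted p = 0.39 with outlier spots kept), and Slc9a3r2 0.53 and 0.60 against 0.81 and 1.00 (difference -0.34, adjusted p = 0.80). Atp1b3 differed by -0.42 with an adjusted p of 1. The arrays of Accn3, Atp1b1 and Slc9a3r2 with and without the inhibitor did not overlap, and the differences did not pass the adjustment. These members were picked for high values on the same NaCl 8 h arrays, so lower values in another group were likely beforehand. For that reason the comparison cannot show an effect of the inhibitor, which was not tested on members picked otherwise.

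Given alone, SB203580 yielded 29 called members of 101 against the pool, 10 higher and 19 lower, beside 33.7% of all genes, 20.2% higher and 13.4% lower. Without the first array 3 members were called and without the second 40, so the count rests on the first, which had the widest ratios of the series (interquartile range 0.858). Among the 12 largest were Kcnj2, Kcnab3, Trpm7, Kcnab1 and Atp1b3 above the pool and Atp2a3, Slc8a1, Trpm5, Kcns1 and Kcna7 below. Slc26a6 measured 0.51 and 0.48, and was the 1 member also called against the other WT groups (0.58 ± 0.13, 1.5-fold, adjusted p = 0.024). Its second probe measured 0.04 and 0.06. With outlier spots kept Slc9a4 was called too (1.11 and 0.51, difference 0.55 ± 0.13, adjusted p = 0.034), and its dim second probe read -1.03 and 0.15.

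When NaCl for 8 h was compared with SB203580 alone in cells that had both, 8 of 93 members were called, 5 higher (Trpm5, Accn3, Kcnh7, Clcn5 and Kcna1) and 3 lower (Kcnv1, Slc26a6 and Kcnab1), beside 9.36% of all genes, 2.33% higher and 7.03% lower. Accn3 rose by 0.94 ± 0.29 (adjusted p = 0.047). Kcnh7 rose by 0.79 with its brightest probe, whereas its dimmer probes gave -0.22 and -0.29. Slc26a6 fell by 0.84 ± 0.16 (adjusted p = 0.0026), from 0.51 and 0.48 to -0.47 and -0.21. Trpm5, a calcium-activated cation channel, measured -1.54 and -0.56 with SB203580 and 0.10 and 0.21 with both (1.21 ± 0.26, adjusted p = 0.0056).

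Anisomycin and TNFα gave no member call against the other WT groups. Against the pool anisomycin gave 10 calls of 103 members, 3 higher (among them Kcnab1 and Kcnk6) and 7 lower (Atp2a3, Accn5, Slc34a1, Trpm5, Trpc4ap, Slc34a3 and Kcnip1), beside 15.6% of all genes, 8.26% higher and 7.36% lower. With replicate number as a block there were 20, beside 24.6%, and without the first array 2. TNFα gave 12 of 98, 4 higher (among them Kcnj2, Kcnab1 and Kcne3) and 8 lower (among them Slc12a3, Kcnk5, Clcn7, Trpv4, Slc26a8, Kcna1 and Kcnip1), beside 16.6% of all genes, 9.23% higher and 7.4% lower, and leaving out the first array gave 2 and the second 5. Kcnj2, an inward rectifier, measured 0.45 and 1.1 after TNFα, within the range of the WT arrays without TNFα. Kcne3, an accessory subunit of voltage-gated channels, measured 0.62 and 0.56, above all other WT arrays (-0.09 to 0.47), and its difference from the other WT groups did not pass the adjustment (0.42 ± 0.13, adjusted p = 0.30). The second, dimmer probe of Kcne3 measured 0.08 and -0.47.

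Untreated KO cells differed from the pool in 19 of 111 members, 9 higher and 10 lower, beside 19.3% of all genes, 11.1% higher and 8.12% lower. Without the first array 3 were called. Among the 12 largest were Slc12a8, Kcns3, Kcna3, Kcnab3, Accn3 and Slc9a3r1 above the pool and Slc8a1, Trpm5, Kcnab1, Kcnk5 and Slc34a1 below. Against all 11 WT groups with outlier spots kept, 6 of 176 were called (among them Slc12a8 and Kcnab2 higher and Kcnab1 and Kcnh6 lower). The WT groups were all treated and the KO group was not, so genotype and treatment cannot be told apart in this comparison.

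Kcnab1, a β subunit of voltage-gated potassium channels, measured -0.72 and -0.67 in untreated KO cells and -0.95 to -0.52 on the 8 KO arrays. On the WT arrays it lay between -0.27 and 1.1, with the lowest values (-0.27 and -0.09) after SB203580 plus 8 h of NaCl, and the genotypes did not overlap. In the shared scan batch the 4 KO arrays lay at or below -0.52 and the 11 WT arrays at or above -0.09. The difference was -1.34 ± 0.16 (2.53-fold, adjusted p = 5.9e-05). Its second probe lay below the pool on all 30 arrays, from -1.22 to -0.06, and measured -0.70 and -0.60 in untreated KO cells.

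Slc12a8, an orphan member of the cation-chloride cotransporters, measured 1.65 and 0.57 in untreated KO cells, 0.48 to 1.65 on all KO arrays and -0.73 to 0.44 on the WT arrays. In the shared scan batch the KO arrays lay between 0.80 and 1.65 and the WT arrays between -0.05 and 0.44. The difference was 1.02 ± 0.20 (2.02-fold, adjusted p = 0.0064).

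Kcnab2, an auxiliary subunit of voltage-gated potassium channels, measured 0.15 and 0.53 against -0.45 to 0.26 in WT cells (0.50 ± 0.12, adjusted p = 0.023), and Kcnh6, unmarked on 5 of 30 arrays, -1.36 and -0.94 against -1.36 to -0.13 (-0.59 ± 0.14, adjusted p = 0.027). Both overlapped the WT arrays.

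**Figure D5:**
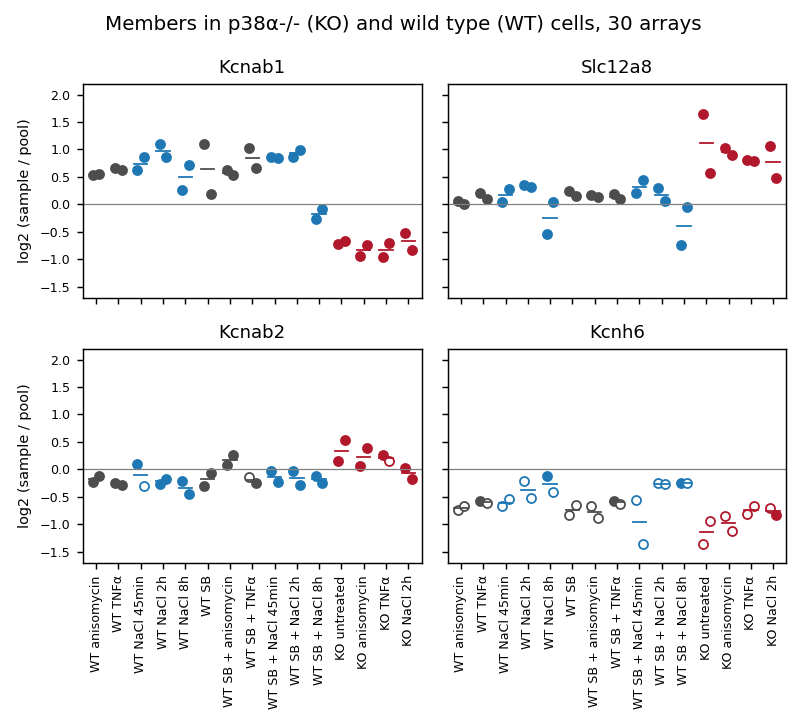
Log2 ratio of sample to pool on each of the 30 arrays for 4 members called in untreated KO cells against all WT groups, in 15 groups (2 points and a line at their mean, open points for spots marked as outliers, grey for WT without NaCl, blue for WT with NaCl, red for KO). For Kcnab1 and Slc12a8 the 8 KO arrays do not overlap the 22 WT arrays, while for Kcnab2 and Kcnh6 they do.

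Stressed KO cells, set against untreated KO cells, gave 0 calls by limma among 106 members after anisomycin, 0 among 90 after TNFα and 0 among 104 after NaCl, beside 0.101%, 0.13% and 1.27% of all genes. At an unadjusted p under 0.05 there were 1 (Trpc5), 1 (Slc12a9) and 16 members, again without a share of all genes beside them. With scan batch as a term of the fit 4 members were called after NaCl, among them Kcnj12 (1.82, adjusted p = 0.017), Slc9a10 (1.12, adjusted p = 0.024) and Kcnj10 (-0.60, adjusted p = 0.026), beside 2.73% of all genes. With replicate number as a block there were 5, among them the same 3 and Trpm3 (-0.57, adjusted p = 0.048), beside 2.68% of all genes. Kcnj12, an inward rectifier, measured -0.78 and 1.20 untreated and 1.36 and 2.68 after NaCl, so its replicates lay far apart in each group, the stressed array above the untreated one in both replicates.

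The response of KO cells minus that of WT cells was called by limma for 0 of 92 members under anisomycin, for 1 of 76 under TNFα and for 0 of 98 under NaCl, beside 1.06%, 1.47% and 0.208% of all genes. At an unadjusted p under 0.05 there were 9, 9 and 18, likewise without a share of all genes beside them. With replicate number as a block 3 were called under anisomycin (Kcna5 -1.35, Trpc5 0.91 and Clcn5 0.84) and 1 under NaCl, beside 4.59% and 1.84% of all genes. The WT response was taken against the pool and carried any offset of a probe, whereas the KO response was taken within KO cells and did not. With the other WT groups as reference 0 members were called for any of the 3 stresses, beside 0%, 0% and 0.0249% of all genes. For Kcnk5 the responses to NaCl differed by -0.11 ± 0.28 and for Slc4a7 by 0.14 ± 0.20 by that reference with outlier spots kept.

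For the 4 members that the study names in its text, the probes of 3 disagreed and the last was dim. Slc20a1, a sodium-phosphate cotransporter, measured -0.74 and -0.40 after 2 h of NaCl with its brightest probe and 1.92 and 0.89 with the dimmer one. Over the 30 arrays the brightest probe lay below the pool on 28 and the dimmer one above it on 29. After 45 min of TNFα the brightest probe measured 0.23 and -0.05 in WT and 0.48 and -0.28 in KO cells. Against the other WT groups with outlier spots kept, that probe stood 0.85 ± 0.20 higher after TNFα in WT cells (limma adjusted p = 0.083). Accn2 (now Asic1), an acid-sensing channel, measured -0.20 and 0.16 with its brighter probe at 2 h and 1.94 and 0.75 with a dim one. Trpm3 measured -0.14 and -0.07 at 2 h with its brightest probe, and its dimmest read 2.13 and 0.56 there, with 3.07 and 0.48 at 45 min, the high value in each case on the first array. Kcnv2 was not well above background on any array in either colour. Of 47 members with at least 2 probes measured at 2 h, the probes had opposite signs for 30 and differed by over 1 for 6, and at 8 h the counts were 16 and 5 of 39.

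At a 2.5-fold mean ratio, a threshold taken from the methods of the study, 1 member was higher after 8 h of NaCl (Accn3) and 2 lower (among them Slc26a11), beside 1.6% and 0.726% of all genes. After anisomycin 1 member was higher (beside 0.691% of all genes), and after 45 min of NaCl 1 (0.649%). No member was higher after TNFα (0.632% of all genes), NaCl for 2 h (0.784%), SB203580 (0.57%) or in untreated KO cells (0.363%). Atp2a3 was the 1 member lower after anisomycin (0.508%), and it was 1 of 2 lower after NaCl for 45 min (0.479%), after NaCl for 2 h (0.226%) and after SB203580 (0.777%). After TNFα 1 member was lower (0.489%), and in untreated KO cells 2, among them Slc8a1 (0.653%). Both genes carried the offset described above. In KO cells 1 member, Kcnj12, was higher after NaCl than before (0.857%).

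Several widely expressed members were not called at 8 h of NaCl against the other WT groups. The phosphate transporter Slc20a2, the potassium-chloride cotransporter Slc12a4, the antiporter Clcn3, the calcium-activated potassium channel Kcnma1 and the TRP channels Trpm7 and Trpc1 had differences from the other WT groups of 0.18, -0.03, 0.15, 0.08, 0.09 and 0.18. Trpm7, a channel with a kinase domain, was called against the pool at 8 h (0.58), but lay above the pool on 29 of 30 arrays. Atp2b1 was not analysed here.

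Regulators of ion transport and osmolyte genes, which are no members, were listed for comparison. Sgk (Sgk1), a kinase that raises sodium channels and transporters at the membrane, measured 2.67 and 1.81 at 2 h and 3.95 and 3.48 at 8 h in WT cells. In KO cells it measured 2.91 and 2.77 after 2 h, against 0.67 and 0.17 untreated (2.42 ± 0.29, adjusted p = 0.0034). With outlier spots kept and the other WT groups as reference, 6 of 19 regulators were called higher at 8 h and 0 lower, beside 16.4% of all genes. Against the pool with marked spots left out, 3 of 10 measured were higher and 1 lower, beside 24.7%. By the other reference Sgk stood at 3.24 ± 0.29 (adjusted p = 5.6e-07), Stim1, the calcium sensor that opens store-operated channels, at 0.91, Nedd4l, a ubiquitin ligase that removes sodium channels, at 0.79, Cab39 at 0.45, Fxyd7 at 0.41 and Stk39 (SPAK), the kinase that acts on cation-chloride cotransporters, at 0.38. At 2 h Sgk was the 1 regulator called by that reference (1.76), and against the pool 3 of 15 were higher and 2 lower. At 45 min the other reference called 0.

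Of 7 genes on the osmolyte list, 4 were called higher at 8 h against the other WT groups with outlier spots kept. The share of all genes called by that fit is given above with the regulators. Slc5a3, Slc6a12 and Nfat5 of the list were not called (differences 0.39, 0.14 and 0.04, adjusted p = 0.16, 0.44 and 0.88). Against the pool with marked spots left out, 2 genes of the list could be tested and 0 were called. Akr1b3, the aldose reductase that makes sorbitol, measured 4.52 and 5.37 (difference 4.69 ± 0.19, adjusted p = 3.6e-11) and 3.03 and 3.66 with SB203580. Hspa4l, a heat shock protein, measured 2.04 and 2.43, Slc38a2, a sodium-coupled amino acid transporter, 1.72 and 2.32, and Slc6a6, the taurine transporter, 1.67 and 1.55. Slc38a2 was called from 45 min on (0.94 ± 0.18, adjusted p = 0.041) and was highest at 2 h (2.54 ± 0.18). In untreated KO cells Fxyd3, a small regulatory subunit of the sodium-potassium pump, measured -1.04 and -0.99, against -0.20 to 0.85 on the WT arrays (-1.36 ± 0.13, adjusted p = 2.7e-06).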

How the data were processed

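Total RNA of 2 independent experiments per group was amplified and hybridised by the authors as Cy5-labelled sample against the Cy3-labelled pool on Agilent 2-colour arrays. Per the file headers (Agilent Feature Extraction 8.1.1.1, whereas the submitters' processing notes name 9.1), the intensity values were spatially detrended, not corrected for local background, given surrogates where dim, and dye-normalized by a linear and a LOWESS step. The deposited log10 ratios of Cy5 over Cy3 were multiplied to log2. The deposited series matrix holds log2 values made by the authors, with their centring not stated, and served as an alternative.

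Control spots and spots marked as non-uniform or population outliers in either colour were left out. A gene was read by the probe with the highest median Cy3 signal over the 30 arrays. Models with 1 mean per group over all 30 arrays were fitted in limma 3.58.1 (R 4.3.3), and a gene with every array of a comparison measured was called at a Benjamini-Hochberg adjusted p under 0.05 over all such genes. The fits were tested on simulated data. Where the text says that outlier spots were kept, or that other WT groups were the reference, those choices were made after seeing the data, and fits with scan batch as a term were added likewise. Deviations of same-numbered arrays from their group means correlated over 0.1 in 6 of 6 pairs of KO groups, in 54 of 55 pairs of WT groups (lowest 0.082) and in 8 of 44 mixed pairs. Replicate number within genotype was therefore also fitted as a block, and its count is given where it moved by over 1.5 times. The pool enters as a ratio of 0, which leaves out its own spread.

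Each named comparison lists every called member or, where more than 12 were called, the 12 with the largest change and both arrays on the same side. The study's own named genes and a list of widely known transporters and channels were named whatever their values. Some members are counted but are not reported by name here. The members and lists were chosen with earlier results of these data known. Member accessions matched GRCm38.p6 for 155 genes and symbols for the other 21. Precision is limited by the 2 arrays per group. Alternatives tried were background correction, the series matrix, the mean over probes, a filter on dim probes, outlier spots, median centring, a replicate block, smaller fits and leaving out each array.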

Additional observations from a re-analysis of the deposited data

How the results depend on the processing

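Of 79 called results of named members, 0 were called under every setting, and 3 (Accn3 and Slc26a11 at NaCl 8 h and Accn3 at 8 h against 45 min) under all but the fit restricted to the arrays compared. That fit has few residual degrees of freedom and called 0 members wherever the full fit called any, and 0 listed genes. The orders below are anisomycin, TNFα, NaCl 45 min, 2 h and 8 h, SB203580 and KO against the pool, where the main counts were 10, 12, 9, 21, 15, 29 and 19. With outlier spots kept they were 49, 51, 37, 42, 38, 90 and 49, split into 5 higher and 44 lower, 10 and 41, 6 and 31, 11 and 31, 12 and 26, 14 and 76, and 10 and 39. The series matrix gave 52, 51, 34, 48, 49, 76 and 43, with 14, 14, 7, 11, 16, 16 and 13 of them higher. The other WT groups as reference gave 0, 0, 1, 3, 7, 1 and 4, and with outlier spots kept 0, 0, 0, 3, 17, 2 and 6. Normexp gave 7 higher and 7 lower for TNFα against 4 and 8, and 1 call for SB203580 with NaCl 8 h. The mean over probes gave 12 at NaCl 2 h and 1 for KO NaCl 2 h. A scan batch term gave 18 for anisomycin, 17 for NaCl 45 min and 4 for KO NaCl 2 h. For NaCl 8 h against 45 min (main 1), the counts were 2 by the mean over probes, 2 by normexp, 2 by the filter on dim probes, 7 with outlier spots kept, 3 with scan batch and 9 by the series matrix. For SB203580 plus NaCl 8 h against SB203580 (main 8), the mean over probes gave 1 and the series matrix 13. Differences KO minus WT for anisomycin, TNFα and NaCl (main 0, 1 and 0) were 21, 23 and 19 with outlier spots kept, 20, 22 and 16 by the series matrix, 1, 3 and 2 by normexp, and for anisomycin and NaCl 2 and 1 with scan batch. With outlier spots kept, 21, 23 and 18 of them were higher, and the median of all genes lay above 0 there too. For NaCl the dim filter gave 1, and for TNFα the mean over probes gave 0 and the other WT groups as reference 0, also with outlier spots kept. Members past 2.5-fold (main 6 genes) were 3 by normexp and 2 by the other reference with outlier spots left out or kept. Called listed regulators and osmolyte genes (main 8) were 14 by the mean over probes, 16 with outlier spots kept, 18 by the series matrix and 3 by the other reference. The cause of these changes was not tested, except that keeping outlier spots tests more genes. The counts in this section stand without a share of all genes, so they cannot be read as responses of the members.

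Values that changed sign against the other WT groups (and with outlier spots kept) were, for Kcnab1, after anisomycin -0.12 (-0.12), after NaCl 8 h -0.16 (-0.16) and after SB203580 -0.030 (-0.030). Slc34a1 was 0.028 after anisomycin and 0.19 (0.15) in KO cells, where the mean over probes gave 0.0093. Slc12a3 was 0.028 after TNFα and 0.29 (0.19), 0.49 (0.39) and 0.56 (0.46) at the 3 NaCl times. Atp2a3 was 0.21 (0.22) and 0.20 (0.21) and Kcnk9 0.029 (0.092) and 0.15 (0.21) at 45 min and 2 h. Accn2 at 2 h was 0.66 by the mean over probes, and Slc4a11 at 45 min 0 without the second array and 2.09 without the first.

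Leaving out 1 array gave 2 to 7, 2 to 5, 2 to 7, 4 to 14, 10 to 12, 3 to 40 and 3 to 14 calls in the order above. The lowest counts came without the first array of TNFα (2), NaCl 45 min (2), NaCl 2 h (4), SB203580 (3) and KO (3). Within KO cells the range was 0 to 0, 0 to 0 and 0 to 3, for 8 h against 45 min 1 to 3, for the inhibitor's effect 0 to 0, except 0 to 1 with NaCl 45 min, and for SB203580 plus NaCl 8 h against SB203580 1 to 13. Differences KO minus WT ranged over 0 to 1, 0 to 1 and 0 to 4, members past 2.5-fold over 6 to 12 and listed genes over 6 to 9. A replicate block within genotype gave 20 for anisomycin, 16 for NaCl 45 min, 5 for KO NaCl 2 h, 4 for 8 h against 45 min, and 3 and 1 for the differences with anisomycin and NaCl. The block moved no other count by over 1.5 times. With outlier spots kept, the median of all genes was -0.12 for SB203580 and 0.10 to 0.12 for the differences KO minus WT and for SB203580 plus NaCl 8 h against SB203580. In the main fit it was -0.11 for the TNFα difference.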

Other observations

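Kcnmb4, an auxiliary subunit of the large-conductance calcium-activated potassium channel, measured 1.28 and 0.68 with SB203580 alone and -0.44 and -0.37 with SB203580 plus NaCl for 8 h, and it was the 1 member lower by 2.5-fold in that comparison. Kcnv2, which was not well above background on any array, read up to 2.53 on the first WT arrays.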
